A study of Homo sapiens with 18 samples.

Results

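The response of SNU2535 cells to TRI-611 was described across every gene that reached a TPM of 1 in 3 or more of the line's 6 libraries. TPM is a transcript abundance scaled to a fixed sum per library, and 16252 of the 57500 genes in the deposited table met the rule. SNU2535 is an established non-small cell lung cancer line, labelled WT for genotype, and is known for an EML4-ALK fusion. The series title calls TRI-611 a molecular glue degrader of ALK. Per the labels, dishes of SNU2535 received either DMSO, the solvent, or 3 µM TRI-611, and were collected after 3 h, with 3 libraries of poly-A RNA per group. The series holds 18 libraries, and the 12 others come from NCI-H3122 and NCI-H2228, treated alike and also labelled WT. The 3 libraries of a group carry batch numbers, but whether they are separate cultures is not stated, so each p-value rests on the spread between libraries, which may be technical.

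ALK is a receptor tyrosine kinase, and the fusion to EML4 keeps its kinase active without a ligand. Active ALK feeds the RAS-RAF-MEK-ERK cascade, the PI3K-AKT branch and STAT3, and these switch on early response genes, growth genes and their own brakes. A molecular glue degrader joins its target to a ubiquitin ligase, so that the target protein is destroyed by the proteasome. RNA levels do not report that loss directly.

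Markers of several cell types were read first. All 12 lung adenocarcinoma and epithelial marker genes were tested, with KRT7, a keratin of simple epithelium, at 2473 to 2667 TPM, NKX2-1, the lung lineage factor, at 328 to 458 TPM, and the lung protease NAPSA at 649 to 838 TPM. Summed TPM of 4 neuroendocrine markers was at most 0.408, and that of 6 leukocyte markers was 10.4 to 13.35 TPM with DMSO and 10.81 to 11.0 TPM with TRI-611, with PTPRC at most at 0.0640 TPM, CD14 at 6.17 to 8.05 TPM and CSF1R at 2.55 to 3.39 TPM. Summed TPM of 4 endothelial markers was 11.77 to 12.42 with DMSO and 10.66 to 11.9 with TRI-611. Squamous markers, 4 in all, had a higher sum with TRI-611, at 19.98 to 21.06 TPM against 15.66 to 16.27 TPM with DMSO. Most of it was TP63, at 13.8 to 14.5 TPM with DMSO and 17.6 to 18.0 TPM with TRI-611, while KRT5 reached at most 0.0940 TPM. Of 6 fibroblast markers, DCN was listed at 0 in all 6 libraries and COL3A1 reached at most 0.0620 TPM, whereas COL1A1 stood at 131 to 164 TPM. LUM stood at 5.619 to 5.721 TPM with DMSO and 7.51 to 8.205 TPM with TRI-611. The summed level of the 6 markers was 136.6 to 145.8 TPM with DMSO and 147.7 to 171.9 TPM with TRI-611. The part of these marker sets in the results was not tested. Genes above 0 TPM numbered 24514 to 25654 per library, and mitochondrially encoded genes took 7.59% to 9.94% of TPM with DMSO and 8.63% to 9.92% with TRI-611. TPM carries no read totals, so the depth is unknown.

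ALK RNA measured 22.5, 26.6 and 25.3 TPM with DMSO and 21.7, 21.7 and 20.4 TPM with TRI-611. The lowest DMSO library lay above the highest TRI-611 library, yet the difference of -0.21 on the log2(TPM + 1) scale did not pass the test (limma adjusted p = 0.0518), and over the alternatives the adjusted p ran from 0.00978 to 0.143. EML4, the microtubule-binding partner in the fusion, stood at -0.16 (limma adjusted p = 0.0406). That call was lost under quantile normalization (0.195), plain empirical Bayes (0.0759) and median-ratio scaling (0.0656), when batch was a replicate block (0.0888), with a filter of TPM above 0 (0.0678), without the mitochondrially encoded genes (0.0623), without DMSO replicate 1 (0.127), 2 (0.0592) or 3 (0.0764), and without TRI-611 replicate 1 (0.105) or 3 (0.102). Reads of the fusion transcript and of the unrearranged genes are not separated in a gene-level table.

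Limma called 4672 of the 16252 genes (28.7%) at an adjusted p under 0.05, 1731 higher (10.7%) and 2941 lower (18.1%). In 7141 genes (43.9%) all libraries of 1 group lay above all of the other. Of the tested genes, 14358 had a TPM of 1 or more in all 6 libraries, 91 reached it in the 3 DMSO libraries only and 80 in the 3 TRI-611 libraries only, and such genes had to differ. At the edge of the rule, 707 genes reached a TPM of 1 in exactly 3 libraries and 894 in exactly 2. Called genes that were higher by 2-fold or more numbered 95 (0.585% of those tested), and 224 were lower by as much (1.38%). Quantile normalization moved the split of calls to 2500 higher and 2415 lower, and median-ratio scaling to 2061 and 2709. The median difference over all tested genes was -0.02, and 0.02 under quantile normalization. A stricter count follows, in which a gene is said to have risen or fallen only when it was called in the main test and in each of the alternatives that tested it, which include the replicate block, both other scalings and the omission of each library in turn. By that count 970 genes rose (5.97%) and 1979 fell (12.2%), and the shares of each gene list below are to be read against these values. Both shares include lincRNA, antisense and processed pseudogene entries, which were called less often. In the main test 12.4% of the 12361 protein-coding genes were called higher and 22.0% lower, against 10.7% and 18.1% over all. The stricter shares were not counted for protein-coding genes alone, so 5.97% and 12.2% may be a low background for lists of such genes. Fold values on the log2(TPM + 1) scale understate the change of low genes. A gene given as going from 1 level to another is described by the mean TPM of the 3 libraries in each group. For the 241 named genes that rose or fell, limma's SE of the log2 difference ran from 0.0265 to 0.207 with a median of 0.0600, and their adjusted p from 3.23e-08 to 0.0157.

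**Figure D1:**
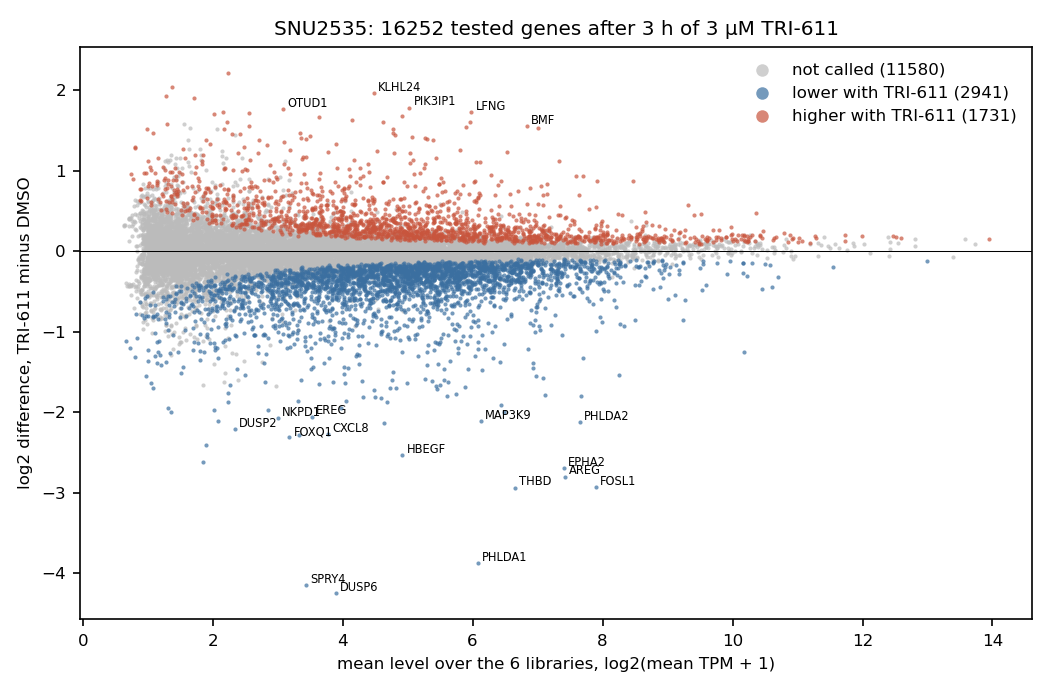
Each point is 1 of the 16252 tested genes in SNU2535. The x axis is the log2 of the mean TPM over the 6 libraries plus 1, the y axis is the log2 difference of TRI-611 minus DMSO, and colours mark the 2941 genes called lower and the 1731 called higher. DUSP6 at -4.24 and SPRY4 at -4.14 lie lowest among the labelled genes.

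The largest falls were in DUSP6 and SPRY4, which ERK signalling is known to induce. DUSP6, a phosphatase that switches ERK off, measured 25.2, 28.1 and 28.3 TPM with DMSO and 0.426, 0.499 and 0.539 TPM with TRI-611 (log2 difference -4.24 ± 0.0846 SE, limma adjusted p = 2.56e-07). SPRY4, a Sprouty inhibitor of receptor signalling, measured 19.6, 20.5 and 18.5 TPM with DMSO and 0.119, 0.146 and 0.222 TPM with TRI-611 (-4.14 ± 0.0936 SE, limma adjusted p = 4.47e-07). In both genes every TRI-611 library lay more than 10-fold below every DMSO library and under 1 TPM, so both passed the filter only through the DMSO group, where they had to be higher, and were not tested when a DMSO library was left out. With a filter of TPM above 0, which all 6 libraries of each gene met, limma's adjusted p was 2.35e-06 for DUSP6 and 3.85e-06 for SPRY4. PHLDA1, a pleckstrin-like protein induced early by growth signals, measured 128, 122 and 126 TPM with DMSO and 7.10, 8.14 and 7.60 TPM with TRI-611 (-3.88 ± 0.0538 SE, limma adjusted p = 3.23e-08). In GRCh38 DUSP6 and PHLDA1 both lie on chromosome 12, at 89347232 to 89353271 and 76025447 to 76033932, and SPRY4 on chromosome 5 at 142310427 to 142326455.

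FOSL1, an AP-1 subunit, measured 435, 421 and 404 TPM with DMSO and 53.9, 59.9 and 49.1 TPM with TRI-611 (-2.93), and THBD, the thrombin receptor thrombomodulin, 166, 185 and 179 TPM with DMSO and 22.6, 23.9 and 20.3 TPM with TRI-611 (-2.93). AREG, a ligand of EGFR, stood at 296, 306 and 290.2 TPM with DMSO and 43.4, 41.9 and 40.6 TPM with TRI-611 (-2.80). These are abundant transcripts with a narrow spread in each group, and the highest TRI-611 library of each lay far below the lowest DMSO library. That the groups were apart was part of the rule for naming them. EPHA2, an ephrin receptor, went from 292 to 44.3 TPM (-2.69), HBEGF, another EGFR ligand, from 50.5 to 7.95 TPM (-2.53), and the transcription factor gene FOXQ1 from 14.1 to 2.05 TPM (-2.31). The rest of the 15 largest falls were the neutrophil attractant CXCL8 (-2.27), the phosphatase DUSP2 (-2.21), PHLDA2 (-2.12), the kinase MAP3K9 (-2.11), the predicted NTPase NKPD1 (-2.07) and the EGFR ligand EREG (-2.05). Limma adjusted p-values of these 15 genes ran from 3.23e-08 to 0.000122.

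The largest rises were smaller in size. KLHL24, a substrate adaptor of a ubiquitin ligase, measured 8.37, 7.51 and 8.44 TPM with DMSO and 35.1, 32.1 and 36.2 TPM with TRI-611 (1.96 ± 0.0674 SE, limma adjusted p = 2e-06). PIK3IP1, a membrane inhibitor of PI3K, measured 15.0, 13.3 and 12.6 TPM with DMSO and 53.8, 45.6 and 48.9 TPM with TRI-611 (1.78 ± 0.0801 SE, limma adjusted p = 6.73e-06). BMF, a BH3-only gene that promotes cell death, measured 55.7, 60.8 and 53.6 TPM with DMSO and 167, 172 and 167 TPM with TRI-611 (1.56 ± 0.0491 SE, limma adjusted p = 1.68e-06). All 3 TRI-611 libraries were higher than all 3 DMSO libraries in each of these genes, as the rule for naming them required. They lie on chromosome 3 at 183635568 to 183684477, chromosome 22 at 31281593 to 31292534 and chromosome 15 at 40087890 to 40108892.

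Among the others, LFNG, a glycosyltransferase that modifies Notch receptors, went from 28.4 to 96.0 TPM (1.72) and MMP13, a collagen-cutting protease, from 13.2 to 45.2 TPM (1.68), with 1 TRI-611 library at 54.3 TPM above the other two at 40.4 and 40.7 TPM. The deubiquitinase OTUD1 (1.76), the forkhead gene FOXN1 (1.73), the glucocorticoid receptor regulator CREBRF (1.72) and the Wnt regulator FRAT1 (1.71) started from low levels, 2.87, 1.08, 1.75 and 0.902 TPM with DMSO. The acetyltransferase-domain gene NATD1 (1.67), the interferon-induced gene IFIT2 (1.63), the CDK inhibitor CDKN1C (1.61), the glucocorticoid-induced gene GLCCI1 (1.61), the glycogen-targeting phosphatase subunit PPP1R3C (1.60) and the RAP exchange factor RASGEF1B (1.55) complete the 15. Limma adjusted p-values ran from 1.68e-06 to 0.000751.

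**Figure D2:**
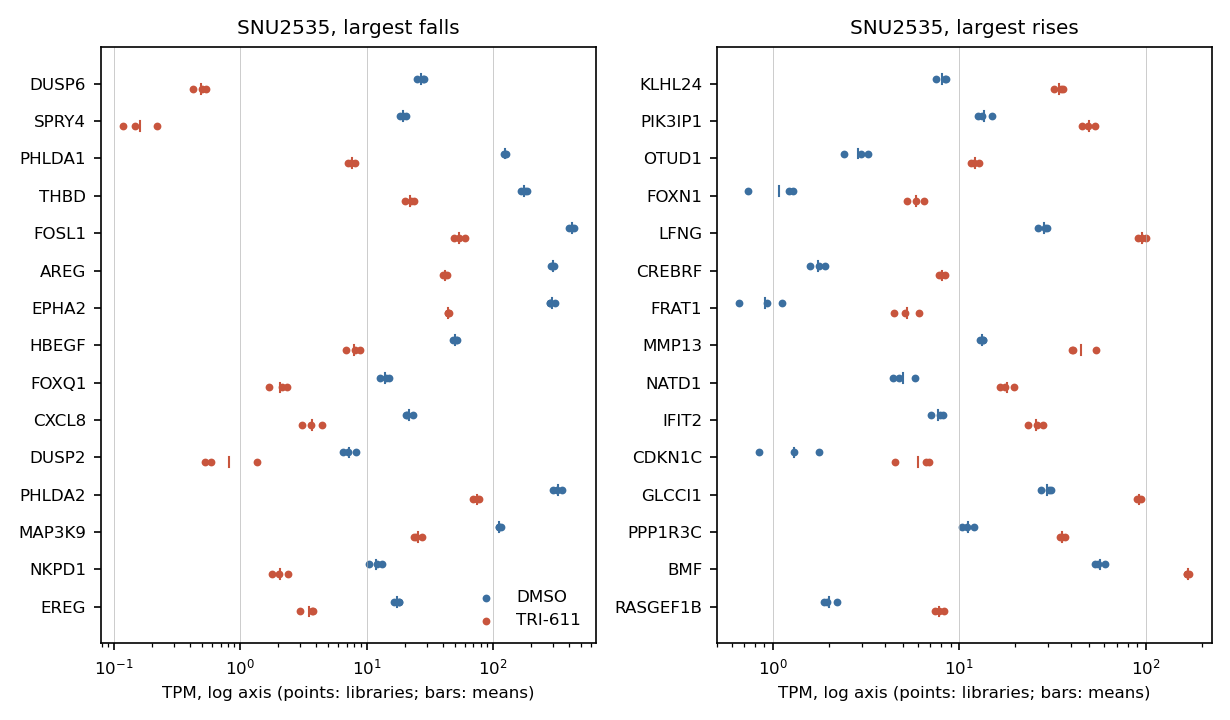
TPM in each SNU2535 library, on a log axis, of the 15 largest falls (left) and the 15 largest rises (right) among called protein-coding genes. Blue points are DMSO libraries, red points TRI-611 libraries and short bars group means. The 2 groups are apart in every gene, as the rule for naming them required.

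Promoters of the genes with a difference of at least 2-fold were searched for short motifs in RefSeq's table of starts (build GRCh38.p14, from 250 bases before each start). A window was on hand for 49 of the 95 genes that were higher and for 134 of the 224 that were lower. FOXO factors are forkhead proteins that AKT keeps out of the nucleus, and the forkhead core GTAAACA, read on both strands, was present in 6 of the 49 (12.2%), in 4 of the 134 (2.99%), in 3.32% and 1.6% of all called higher and lower genes with a window, 1264 and 2255 in number, in 2.0% of the 10686 tested genes with a window and in 2.98% of all 35116 rows. The 6 windows are shown as 100 bases of the gene's own strand, with the match in capitals, in either orientation.
BCL2L11: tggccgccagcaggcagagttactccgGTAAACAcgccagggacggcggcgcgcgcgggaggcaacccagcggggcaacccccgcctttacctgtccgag
HBP1: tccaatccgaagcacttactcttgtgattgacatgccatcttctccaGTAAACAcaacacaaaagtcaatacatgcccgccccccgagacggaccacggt
OTUD1: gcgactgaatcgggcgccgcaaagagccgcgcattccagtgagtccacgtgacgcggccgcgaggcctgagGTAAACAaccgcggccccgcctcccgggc
FRAT1: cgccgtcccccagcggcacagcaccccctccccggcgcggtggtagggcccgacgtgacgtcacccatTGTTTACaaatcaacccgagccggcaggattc
BTG1: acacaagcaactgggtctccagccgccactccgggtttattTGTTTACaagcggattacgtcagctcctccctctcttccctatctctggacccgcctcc
TCP11L2: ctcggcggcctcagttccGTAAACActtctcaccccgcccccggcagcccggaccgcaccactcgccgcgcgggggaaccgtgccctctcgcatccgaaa
These windows lie at chr2:111120664-111120763 on the plus strand (BCL2L11), chr7:107168783-107168882 on the plus strand (HBP1), chr10:23438975-23439074 on the plus strand (OTUD1), chr10:97319171-97319270 on the plus strand (FRAT1), chr12:92145997-92146096 on the minus strand (BTG1) and chr12:106302483-106302582 on the plus strand (TCP11L2). The match began 29 bases before the start in OTUD1 and 32 in FRAT1, and 223 in BCL2L11, the gene of the BH3-only protein BIM. Of these genes, BCL2L11 measured 9.81, 11.0 and 9.95 TPM with DMSO and 23.3, 24.6 and 23.2 TPM with TRI-611 (1.14, limma adjusted p = 1.59e-05), and BTG1, an antiproliferative cofactor of mRNA decay, 30.6, 27.7 and 30.7 TPM with DMSO and 87.2, 90.6 and 86.8 TPM with TRI-611 (1.54, limma adjusted p = 1.74e-06). HBP1, a repressor of cell cycle genes, rose by 1.41 on the log2 scale and TCP11L2 by 1.46. All 6 genes lay higher in every TRI-611 library than in any DMSO library, but they were chosen for a called rise of at least 2-fold. Over all tested genes the groups were apart in 43.9%. A match is a description of the letters and not evidence of binding.

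Other motifs were counted in the same windows. The cyclic AMP response element TGACGTCA, a palindrome bound by CREB and ATF factors and by some AP-1 dimers, was present in 8 of the 134 promoters of genes lower by at least 2-fold (5.97%), in 2 of the 49 higher ones (4.08%) and in 2.94% of the tested genes with a window, with 3.19% and 2.69% over all called lower and higher genes. FRAT1 is among the 2 higher genes with a match, which lies unmarked in its forkhead window above. The element is shown for EPHA2, AREG and MAFF only, the 3 of the 8 lower genes with the largest falls.
EPHA2: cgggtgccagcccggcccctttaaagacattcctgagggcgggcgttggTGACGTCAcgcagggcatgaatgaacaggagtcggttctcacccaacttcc
AREG: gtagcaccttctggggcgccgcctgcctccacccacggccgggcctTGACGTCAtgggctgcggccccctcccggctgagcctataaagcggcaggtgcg
MAFF: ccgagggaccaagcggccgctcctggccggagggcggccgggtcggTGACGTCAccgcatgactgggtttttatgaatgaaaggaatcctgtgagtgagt
These lie at chr1:16156070-16156169 on the minus strand (EPHA2), chr4:74445025-74445124 on the plus strand (AREG) and chr22:38201894-38201993 on the plus strand (MAFF), with the first base of the match 51, 65 and 54 bases before the start. MAFF, a small MAF partner of AP-1 and NRF factors, went from 14.4 to 4.09 TPM (-1.60). The E-box CACGTG, the MYC-type core, was present in 20.4% of promoters of higher genes and 14.9% of lower genes with a difference of at least 2-fold, against 8.95% of tested genes with a window, and over all called genes in 9.73% and 9.67%. The ETS core CCGGAAGT was present in 0 of 49 and in 5.22%, against 7.13%, and over all called genes in 4.67% of the higher and 8.69% of the lower, so the lower genes stood below that background at 2-fold and above it over all calls. TATAAA was present in 20.4% and 7.46%, against 5.68%, and over all calls in 8.78% and 4.66%. The AP-1 core TGANTCA was present in 12.2% and 5.97%, against 4.3%, and over all calls in 4.51% and 3.59%. Each was read on both strands.

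Growth factor genes fell while several receptor genes rose. Of 14 tested growth factor genes, 8 fell and 0 rose (list median -0.49). Beside AREG (-2.80), HBEGF (-2.53) and EREG (-2.05), the cytokine LIF fell by 1.62 on the log2 scale. The levels of LIF were 28.4, 27.8 and 29.4 TPM with DMSO and 8.39, 7.96 and 9.63 TPM with TRI-611, so the groups stood well apart. NRG1, the ligand of ERBB3, lay at 0.07 and did not pass (limma adjusted p = 0.304).

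ERBB3, a partner receptor of EGFR and ERBB2, measured 60.2, 61.2 and 59.1 TPM with DMSO and 108, 113 and 111 TPM with TRI-611 (0.87 ± 0.0353 SE, limma adjusted p = 4.38e-06). The insulin receptor INSR rose from 4.61 to 7.88 TPM (0.66) and ERBB2 from 108 to 139.9 TPM (0.37), while EGFR fell from 89.8 to 73.5 TPM (-0.29). These 4 were the only risers and fallers among 17 tested receptor tyrosine kinases under every setting. MET stood at -0.16 and lost its call under plain empirical Bayes (0.0512). AXL lay at 0.17 and FGFR1 at -0.11, neither called. Among 15 Eph receptors and ephrins, 5 fell, led by EPHA2 and EPHA4 (-1.64), and 2 rose, the ligand EFNA1 (0.86) and the receptor EPHB3 (0.42).

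The docking proteins that carry signals from insulin-type receptors fell sharply. IRS1 measured 38.7, 40.5 and 38.9 TPM with DMSO and 13.7, 14.5 and 11.8 TPM with TRI-611 (-1.50 ± 0.0731 SE, limma adjusted p = 9.95e-06), and IRS2 103, 107 and 92.3 TPM with DMSO and 44.9, 43.0 and 40.8 TPM with TRI-611 (-1.21 ± 0.0620 SE, limma adjusted p = 1.29e-05). All TRI-611 libraries of both genes lay below all DMSO libraries. GAB1, another docking protein, rose from 9.79 to 16.8 TPM (0.72), and SOS2, a RAS exchange factor, from 29.1 to 38.7 TPM (0.40). Over the 18 genes of ALK, its fusion partner and receptor adaptors, 4 fell and 2 rose, and the adaptor GRB2 (-0.08) and the phosphatase PTPN11 (-0.07) did not pass.

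The core of the ERK cascade changed little in RNA. Of 17 tested genes 2 fell, the kinase RPS6KA4 (-0.42) and HRAS (-0.29), and 0 rose. BRAF lay at 0.13 and MAP2K1 at 0.07, neither of them called. The brakes on the cascade moved far more. Among 14 dual-specificity phosphatases 7 fell and 2 rose (median -0.27). DUSP4 went from 36.4 to 9.59 TPM (-1.82) and DUSP7 from 34.3 to 9.10 TPM (-1.80). The 2 that rose were DUSP1 and DUSP10. DUSP1 measured 48.6, 50.2 and 55.1 TPM with DMSO and 88.9, 74.2 and 84.0 TPM with TRI-611 (0.67) and DUSP10 100.4, 103 and 99.3 TPM with DMSO and 173, 182 and 185 TPM with TRI-611 (0.83), with no overlap between the groups. DUSP8 (0.03) and DUSP16 (0.11), which like DUSP10 act mainly on the stress kinases, were not called.

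Of 15 Sprouty, Spred and other receptor feedback genes, 10 fell and 2 rose (median -0.40). SPRED2 (-1.73), SPRY2 (-1.70) and SPRED1 (-1.70) fell with SPRY4. The 2 that rose were LRIG1 (0.43) and LRIG3 (0.63), membrane proteins of which LRIG1 is known to promote removal of ERBB receptors. Among 18 further early response regulators 6 fell, among them PHLDA1, PHLDA2 and the pseudokinases TRIB2 (-1.87) and TRIB1 (-0.84), and 2 rose, PHLDA3 (0.35) and PPP1R3C.

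Early response transcription factors were mostly lower after 3 h. Of 11 AP-1 and MAF genes 5 fell and 0 rose (median -0.26). FOSL1 had the largest difference, and JUN fell only from 115 to 95.9 TPM (-0.26). FOS lay at -0.93 (limma adjusted p = 0.122) and JUNB at -0.13, neither called. In the EGR, NR4A and IER list 7 of 12 fell and 1 rose (median -0.39). IER3 went from 160.5 to 68.3 TPM (-1.22), the serum response factor gene SRF from 83.6 to 45.2 TPM (-0.87), and the orphan nuclear receptor NR4A2 rose from 2.33 to 5.62 TPM (1.01). EGR1 measured 31.8, 29.4 and 65.2 TPM with DMSO and 14.4, 14.9 and 18.8 TPM with TRI-611 (-1.25, limma adjusted p = 0.0222), and its call was lost without TRI-611 replicate 1 (0.077) or 2 (0.062).

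ETS factors changed in both directions. Among 18 tested, 7 fell and 4 rose (median -0.19). The PEA3 gene ETV5 went from 33.6 to 15.9 TPM (-1.05), its relative ETV4 from 38.5 to 32.4 TPM (-0.24), and ETV6, a repressor, from 31.8 to 22.2 TPM (-0.50). All 4 that rose belong to the ELF and ESE subfamilies. ELF3, an epithelial ETS factor, measured 138, 146 and 141 TPM with DMSO and 271, 270.2 and 274 TPM with TRI-611 (0.93 ± 0.0323 SE, limma adjusted p = 2.03e-06), ELF1 stood at 0.58, EHF at 0.56 and ELF2 at 0.32. Of 13 KLF genes 5 fell, among them KLF16 (-1.69), KLF2 (-1.67) and KLF10 (-0.83), and 2 rose, KLF5 (0.29) and KLF11 (0.37).

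MYC RNA measured 188, 207 and 214 TPM with DMSO and 65.3, 68.0 and 69.4 TPM with TRI-611 (-1.57 ± 0.0527 SE, limma adjusted p = 1.9e-06). No TRI-611 library reached the lowest DMSO library. The genes of its antagonists were higher: MXD3 (0.77), MXD1 (0.57) and MNT (0.36) rose, while MAX, the shared partner, lay at 0.04. Of 13 genes in the network 3 rose and 2 fell.

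Ribosome biogenesis had the largest share of falling members of the 56 lists, which were chosen with earlier results of these data known. Among 40 tested genes 31 fell and 0 rose, with a median of -0.47 against -0.02 over all tested genes. RRS1, an assembly factor of the large subunit, measured 205, 214 and 219.8 TPM with DMSO and 58.0, 63.9 and 61.7 TPM with TRI-611 (-1.78 ± 0.0461 SE, limma adjusted p = 7.56e-07). The pre-ribosome factor URB2 (-1.38), the RNA methyltransferase NOP2 (-1.26) and the processome subunit WDR43 (-1.22) followed. NPM1, an abundant nucleolar chaperone, lay at -0.02 and was not called.

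Other parts of the translation machinery moved less. Of 31 initiation factor genes 11 fell and 4 rose (median -0.15). The helicase EIF4A1 (-0.53) and the cap-binding protein EIF4E (-0.35) fell, whereas the paralogous helicase EIF4A2 (0.28) and its cofactor EIF4B (0.20) rose. Among 20 cytosolic tRNA synthetases 5 fell, led by FARSA (-0.55), and 1 rose, QARS1 (0.21). Host transcripts of small nucleolar RNAs gave 4 falls, SNHG15 (-1.60), SNHG17 (-1.17), SNHG4 (-0.66) and SNHG16 (-0.58), and 2 rises, SNHG29 (0.20) and GAS5 (0.30), among 19. Reads of such hosts can include those of the small RNAs inside them.

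Amino acid and stress genes under ATF4 were lower. Of 24 tested members 12 fell and 2 rose (median -0.15). ATF4 itself measured 521, 576 and 533 TPM with DMSO and 382, 418 and 395 TPM with TRI-611 (-0.45), and STC2, a secreted glycoprotein, 73.5, 75.6 and 71.0 TPM with DMSO and 21.3, 25.5 and 22.8 TPM with TRI-611 (-1.62). Both genes were lower in each TRI-611 library than in each DMSO library. CHAC1, which degrades glutathione (-1.05), and the pseudokinase TRIB3 (-0.81) fell as well. The 2 rises were PPP1R15A (0.71), a phosphatase subunit that reverses the stress response, and the mTORC1 inhibitor DDIT4 (0.31). ASNS, asparagine synthetase, lay at 0.04, and DDIT3, the CHOP factor, at 0.34, neither called. In the unfolded protein response list 2 of 16 rose, DNAJB9 (0.57) and EDEM1 (0.35), and 2 fell, ERN1 (-0.48) and SDF2L1 (-0.35), with the chaperone HSPA5 at 0.03.

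Chaperones of the heat shock class fell more often than they rose, with 8 falls and 1 rise among 19 (median -0.13). The HSP70 cofactor DNAJB1 measured 399, 406 and 398 TPM with DMSO and 212, 205 and 225 TPM with TRI-611 (-0.90), and HSPA8, the constitutive HSP70, went from 866 to 617 TPM (-0.48). DNAJB4 was the exception, at 12.9, 11.6 and 13.7 TPM with DMSO and 30.7, 30.2 and 33.7 TPM with TRI-611 (1.25). Of 32 proteasome genes 4 fell, each by less than 0.5 on the log2 scale, and 0 rose.

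In the metabolic lists a minority of genes changed. HK2, the inducible hexokinase, measured 56.4, 59.2 and 58.5 TPM with DMSO and 25.6, 25.9 and 21.6 TPM with TRI-611 (-1.22 ± 0.0702 SE, limma adjusted p = 2.09e-05), and it was 1 of 6 falls among 27 glycolysis and pentose phosphate genes. The lactate exporter SLC16A3 (-0.51) and the phosphofructokinase PFKP (-0.36) fell less. LDHA lay at 0.02 and the glucose transporter SLC2A1 at 0.01, neither called. In nucleotide synthesis 7 of 24 genes fell and 0 rose. PPAT, the enzyme of the committed step of purine synthesis, went from 37.0 to 18.2 TPM (-0.98). The uridine kinase UCK2 went from 19.7 to 10.2 TPM (-0.89) and the CTP synthase CTPS1 from 47.9 to 27.6 TPM (-0.78). CAD, the first enzyme of pyrimidine synthesis, lay at -0.10 and was not called.

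Of 29 sterol and fatty acid genes 7 fell and 1 rose. The fatty acid synthase FASN (-0.38) was among the falls. Among 17 nutrient and phosphate carriers 7 fell and 0 rose (median -0.31), with the mitochondrial carrier SLC25A25 (-1.06), the phosphate importer SLC20A1 (-0.64) and the arginine importer SLC7A1 (-0.53) lowest. The 13 protein genes of the mitochondrial genome were called in neither direction by limma, with the smallest adjusted p, 0.380, in MT-CO1.

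FOXO factors and their classic targets had the largest share of rising members, among lists chosen with earlier results of these data known. Of 25 tested, 16 rose and 1 fell (median 0.47). FBXO32, the atrophy ubiquitin ligase, measured 66.7, 64.7 and 63.7 TPM with DMSO and 192, 197 and 181 TPM with TRI-611 (1.53 ± 0.0417 SE, limma adjusted p = 9.24e-07), and the cyclin gene CCNG2 21.2, 23.1 and 22.9 TPM with DMSO and 59.3, 60.4 and 59.7 TPM with TRI-611 (1.38 ± 0.0458 SE, limma adjusted p = 1.9e-06). Both groups were tight and apart. The factors FOXO1 (0.48) and FOXO3 (0.28) rose modestly themselves. IRS2, a FOXO target in liver, was the member that fell. ERBB3, INSR, CDKN1B and TNFSF10 belong to this list as well as to others named here, so the lists are not independent.

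The PI3K and mTORC1 list gave 7 rises and 2 falls among 28. Beside PIK3IP1, the catalytic subunit PIK3CB went from 10.0 to 18.3 TPM (0.80), the stress sensor SESN3 from 7.46 to 12.4 TPM (0.66) and the folliculin partner FNIP1 from 16.4 to 26.2 TPM (0.64). The regulatory subunit PIK3R1 fell from 20.2 to 11.9 TPM (-0.72) and the kinase AKT1 from 114 to 99.5 TPM (-0.19). Of 27 autophagy and lysosome genes 10 rose and 2 fell. GABARAPL1, which coats autophagosomes (0.76), ATG14 of the nucleating lipid kinase complex (0.66) and the initiating kinase ULK1 (0.57) rose. TFEB, a master factor of lysosome genes, fell from 6.61 to 4.58 TPM (-0.45), and ATG16L1 also fell (-0.55).

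Cell cycle genes changed chiefly at the G1 controls. CCND1, cyclin D1, measured 1657, 1595 and 1605 TPM with DMSO and 667, 739 and 641 TPM with TRI-611 (-1.25 ± 0.0519 SE, limma adjusted p = 4.76e-06). The CDK inhibitor CDKN1B, p27, measured 128, 130.4 and 136 TPM with DMSO and 253, 249.7 and 249.6 TPM with TRI-611 (0.93 ± 0.0330 SE, limma adjusted p = 2.25e-06), and CDKN1C, p57, 0.840, 1.77 and 1.30 TPM with DMSO and 6.65, 4.52 and 6.91 TPM with TRI-611. In all 3 genes the groups were apart, and the direction was down for the cyclin and up for both inhibitors. CCNE1 (-0.91), the phosphatase CDC25A (-0.95) and CCND3 (-0.65) fell too, CDKN2C rose (0.31), and the list of 16 held 6 falls and 3 rises. CDK4 lay at 0.03 and CDK6 at 0.01.

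Genes of later phases moved little at 3 h. Among 30 G2 and mitosis genes 3 rose, the kinase TTK (0.52), the kinesin KIF20A (0.47) and NUSAP1 (0.26), and 1 fell, CDC25B (-0.32). Among 30 G1/S and replication genes 2 fell, E2F3 (-0.90) and MCM10 (-0.35), and 1 rose, E2F2 (0.40). The proliferation marker MKI67 lay at -0.08 and the replication helicase gene MCM2 at 0.09, neither called. Of 22 p53 targets 4 rose and 6 fell: TP53INP1 (1.22) and BBC3 (0.83) stood highest, and the kinase PLK3 (-1.97) and the nuclease AEN (-1.58) lowest.

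Genes of the death machinery shifted on both sides of the BCL2 family. Among 7 tested BH3-only genes 3 rose, BMF, BCL2L11 and BBC3, and 1 fell, PMAIP1 (-0.39), whose protein is NOXA. BBC3, encoding PUMA, measured 28.2, 34.4 and 31.4 TPM with DMSO and 55.8, 56.6 and 56.7 TPM with TRI-611. The survival genes went down: BCL2L1 measured 334, 333 and 323 TPM with DMSO and 185, 184 and 169.9 TPM with TRI-611 (-0.88 ± 0.0398 SE, limma adjusted p = 7.01e-06), MCL1 335, 351 and 357 TPM with DMSO and 227, 225 and 233 TPM with TRI-611 (-0.61), and BCL2L2 stood at -0.31. In BCL2L1 and MCL1 no TRI-611 library reached a DMSO library. The effectors BAX (-0.22) and BAK1 (-0.32) were called in the main test and not under every setting. BAX lost the call under plain empirical Bayes (0.065), without DMSO replicate 2 (0.0538), without TRI-611 replicate 1 (0.0524) and with one fit of all 18 libraries (0.0571). BAK1 lost it with no filter beyond a TPM above 0 (0.056), under quantile normalization (0.0509), under plain empirical Bayes (0.0598), without DMSO replicate 1 (0.0669), without DMSO replicate 2 (0.0713), without TRI-611 replicate 1 (0.0817) and without TRI-611 replicate 2 (0.0597).

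Receptors of the TNF family were mostly lower, with 7 falls and 3 rises among 13 genes that include the ligand TNFSF10 (median -0.31). TNFSF10, TRAIL, measured 3.35, 3.86 and 4.18 TPM with DMSO and 11.9, 10.3 and 11.7 TPM with TRI-611 (1.36), whereas its receptor TNFRSF10A measured 68.9, 70.4 and 69.9 TPM with DMSO and 20.7, 24.0 and 22.7 TPM with TRI-611 (-1.60). The ligand was higher and the receptor lower in every TRI-611 library than in any DMSO library. The TWEAK receptor TNFRSF12A went from 776 to 429 TPM (-0.85) and the decoy receptor TNFRSF10D from 62.2 to 38.6 TPM (-0.68), and FAS lay at -0.04.

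**Figure D3:**
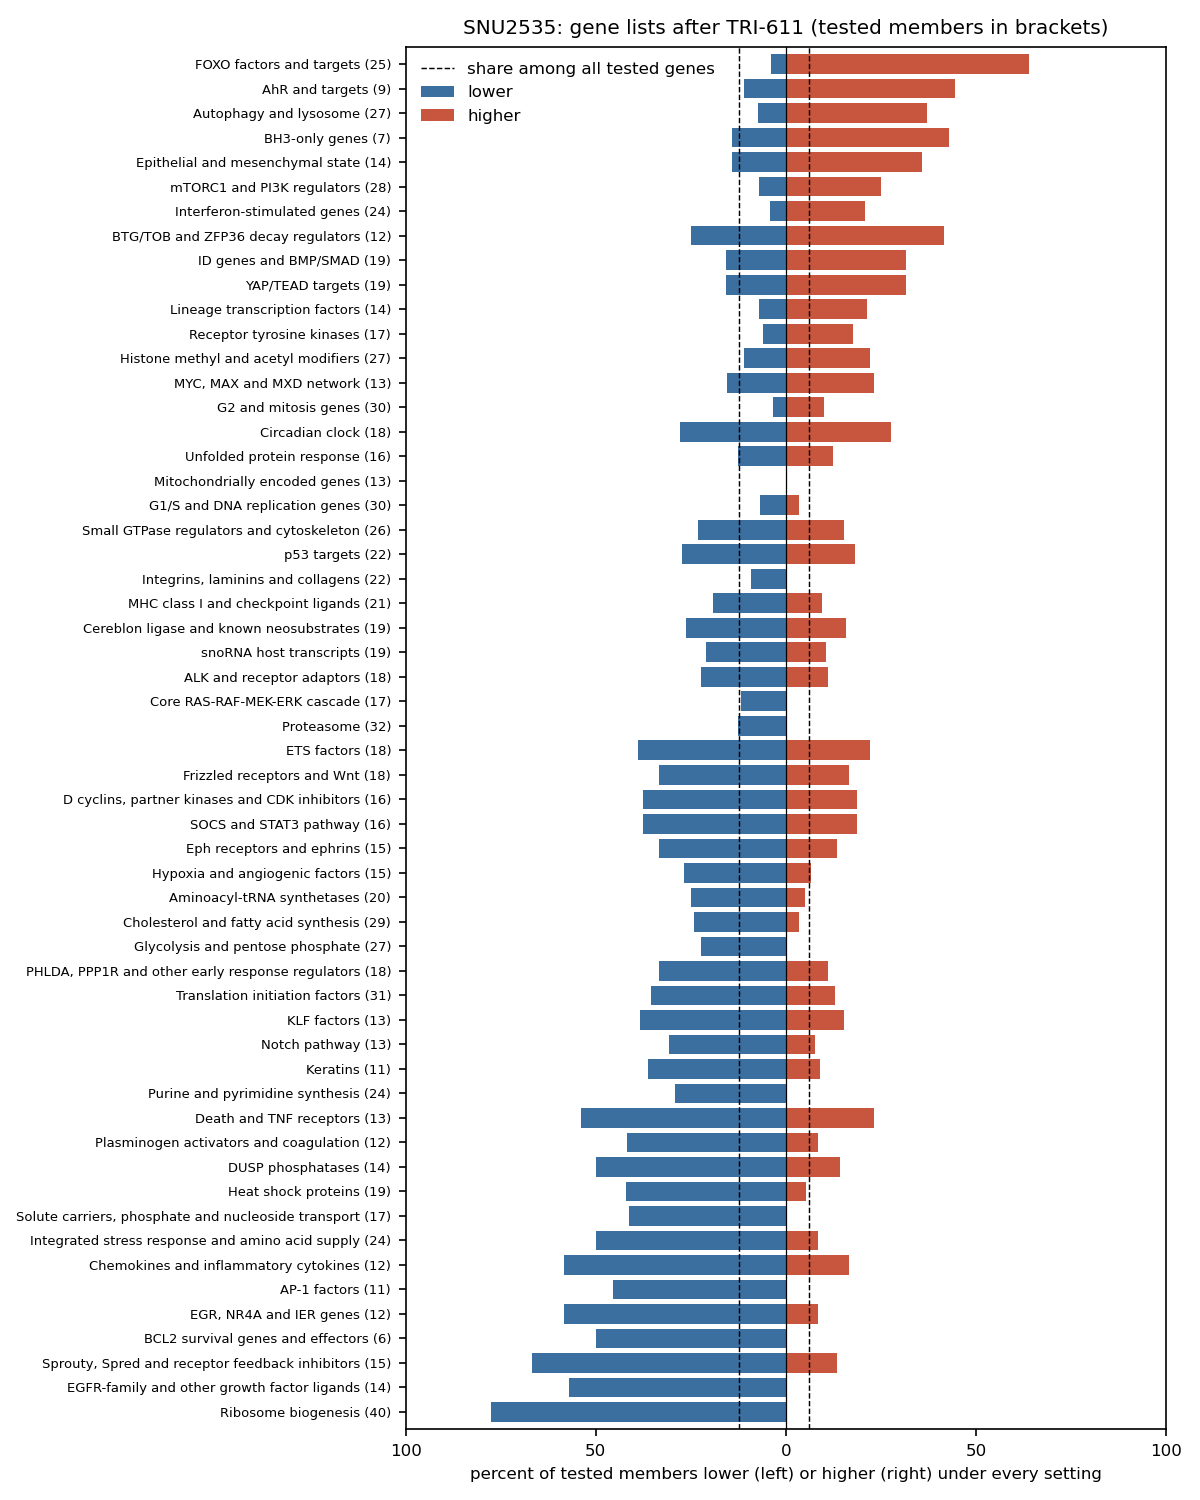
Percent of the tested members of each of 56 gene lists that fell (blue, to the left) or rose (red, to the right) in SNU2535 under every setting that tested them. Dashed lines mark the shares over all 16252 tested genes, 12.2% and 5.97%, non-coding genes included. Ribosome biogenesis, with 31 of 40 lower, and FOXO factors and targets, with 16 of 25 higher, stand at the ends. Lists and members were chosen with earlier results of these data known.

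Cytokine genes fell with the growth factors. Of 12 chemokine and inflammatory genes above the filter 7 fell and 2 rose (median -0.49). CXCL8 measured 20.7, 21.0 and 23.5 TPM with DMSO and 4.40, 3.11 and 3.64 TPM with TRI-611 (-2.27), CSF2, the growth factor GM-CSF, 13.2, 11.9 and 18.6 TPM with DMSO and 3.05, 3.85 and 2.84 TPM with TRI-611 (-1.86), and TNFAIP3, a brake on NF-kB, fell from 16.0 to 5.28 TPM (-1.44). Another NF-kB brake, NFKBIA, rose from 147 to 198 TPM (0.42). In the STAT3 list 6 of 16 genes fell and 3 rose. SOCS3, the feedback inhibitor that STAT3 induces, measured 71.3, 80.3 and 73.3 TPM with DMSO and 20.3, 20.4 and 21.8 TPM with TRI-611 (-1.80 ± 0.0556 SE, limma adjusted p = 1.61e-06), and BCL3, an atypical IkB protein, fell from 64.9 to 19.8 TPM (-1.67). PIM1, a kinase gene that STAT3 and STAT5 also induce, rose from 52.2 to 101 TPM (0.95). STAT3 itself fell by 0.23 on the log2 scale, and SOCS1 lay at -0.11.

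Among 24 interferon-stimulated genes 5 rose and 1 fell (median 0.07). IFIT2 measured 7.03, 8.14 and 7.87 TPM with DMSO and 28.0, 23.3 and 26.2 TPM with TRI-611, and IFIT1 (0.69), IFIT3 (0.56) and STAT2 (0.41) rose less. ISG15 (0.02), MX1 (-0.01) and IRF7 (-0.05), which interferon also induces, were not called. Among surface ligands of immune checkpoints, CD274, PD-L1, measured 25.9, 25.4 and 28.4 TPM with DMSO and 9.37, 8.89 and 10.2 TPM with TRI-611 (-1.39 ± 0.0694 SE, limma adjusted p = 1.13e-05), and PVR, the ligand of TIGIT, fell from 173 to 87.4 TPM (-0.97). B2M, the shared light chain of MHC class I, rose (0.31). Over the 21 genes of both kinds 4 fell and 2 rose. Class I heavy chain genes are near-identical in sequence, so the split of reads among them is uncertain.

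Of 14 lineage factors 3 rose and 1 fell. FOXA2, an endoderm pioneer factor, measured 53.9, 59.5 and 54.5 TPM with DMSO and 20.0, 20.1 and 21.1 TPM with TRI-611 (-1.41 ± 0.0514 SE, limma adjusted p = 2.35e-06), and SOX4 46.7, 42.9 and 38.9 TPM with DMSO and 108, 85.6 and 88.0 TPM with TRI-611 (1.11 ± 0.102 SE, limma adjusted p = 0.000298). Each showed no overlap between groups. NKX2-1 rose from 350.5 to 436 TPM (0.31), and SOX2 (0.19) and SOX9 (0.15) were not called. FOXA1 (-0.24) lost its call under quantile normalization (0.0576). Epithelial junction genes were higher: CLDN3 (0.58), OCLN (0.38), CLDN4 (0.33) and CDH1 (0.19) rose, and SNAI2, a repressor of CDH1, fell from 16.7 to 11.6 TPM (-0.49). In that list 5 of 14 rose and 2 fell. Of 11 keratins 4 fell, with KRT6A (-0.51) and KRT18 (-0.30) lowest, and 1 rose, KRT16 (0.53). Of 22 integrin, laminin and collagen genes 2 fell, COL4A1 (-0.72) and ITGA2 (-0.57), and 0 rose.

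Genes of clotting and plasminogen activation fell more often than they rose. F3, tissue factor, measured 320.4, 311 and 315 TPM with DMSO and 85.8, 101 and 84.8 TPM with TRI-611 (-1.80 ± 0.0634 SE, limma adjusted p = 2.25e-06), and PLAU, the urokinase gene, 291, 298 and 301 TPM with DMSO and 115, 129.6 and 110.4 TPM with TRI-611 (-1.32 ± 0.0575 SE, limma adjusted p = 6.08e-06). With THBD, THBS1 (-0.85) and PLAUR (-0.52) they made 5 falls among 12 genes, against 1 rise, TFPI (0.27), the inhibitor of tissue factor. In the hypoxia and angiogenesis list 4 of 15 fell and 1 rose. HIF1A went from 420.3 to 222 TPM (-0.92) and VEGFA from 21.0 to 8.59 TPM (-1.20), while the oxygen-regulated carbonic anhydrase CA9 lay at 0.48 and was not called.

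Genes of the Notch and Wnt pathways changed in both directions. HES1, the repressor that Notch induces, measured 22.7, 24.1 and 25.0 TPM with DMSO and 4.99, 5.04 and 6.43 TPM with TRI-611 (-1.95 ± 0.0941 SE, limma adjusted p = 9.29e-06). NRARP (-1.02), HES4 (-0.67) and the ligand JAG1 (-0.55) fell, LFNG rose, and NOTCH2 (-0.06) and RBPJ (0.09) were not called, out of 13 genes. In the Wnt list 6 of 18 fell, led by the scaffold AXIN1 (-0.81) and the receptor-removing ligase ZNRF3 (-0.66), and 3 rose, FZD2 (1.08), the secreted inhibitor DKK1 (0.72) and FZD5 (0.31).

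Of the ID genes, inhibitors of helix-loop-helix factors, ID2 and ID3 rose. ID2 measured 50.4, 54.8 and 58.1 TPM with DMSO and 128, 132 and 125 TPM with TRI-611 (1.23) and ID3 157, 183 and 167 TPM with DMSO and 304, 312 and 311 TPM with TRI-611 (0.87), whereas ID1 lay at -0.15. With ATOH8 (0.99) and SMAD9 (0.67) they were among 6 rises, against 3 falls, in 19 genes. ATOH8 passed the filter through the TRI-611 libraries alone, where it had to be higher. It was not tested when a TRI-611 library was left out, and its difference shrank with a larger pseudocount. YAP and TEAD targets divided, with 6 rises and 3 falls among 19: ANKRD1 (1.02) and NUAK2 (0.76) rose, and F3 and the coactivator WWTR1 (-0.49) fell. The standard readouts CCN1 (0.09) and CCN2 (-0.17) were not called. Among small GTPase regulators and cytoskeletal genes 6 of 26 fell, led by the CDC42 effectors CDC42EP2 (-1.46) and CDC42EP1 (-1.38), and 4 rose, with RND1 (0.66) highest.

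The clock genes divided evenly, with 5 rises and 5 falls among 18. PER1 measured 5.51, 5.34 and 4.51 TPM with DMSO and 16.1, 15.0 and 15.1 TPM with TRI-611 (1.43 ± 0.0816 SE, limma adjusted p = 2.09e-05), while its paralogue PER2 measured 15.0, 16.2 and 15.9 TPM with DMSO and 7.71, 6.82 and 7.39 TPM with TRI-611 (-1.01 ± 0.0664 SE, limma adjusted p = 3.76e-05). Both repress the clock, and both showed separate groups in opposite directions. BHLHE40 fell from 123 to 46.6 TPM (-1.38), and DBP (0.78) rose. Regulators of mRNA decay gave 5 rises and 3 falls among 12. PNRC1, a decapping cofactor, went from 20.6 to 55.7 TPM (1.39), and ZFP36L1 (0.37) and ZFP36L2 (0.31) rose while ZFP36 fell (-0.57). Of 27 histone modifier genes 6 rose, among them EZH1 (0.80) and KDM3A (0.64), and 3 fell, with the demethylase KDM6B (-0.89) lowest.

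Targets of the aryl hydrocarbon receptor, a sensor of planar ligands that drives detoxifying enzymes, were also read. CYP1B1 measured 103, 100.1 and 96.7 TPM with DMSO and 232, 225 and 201 TPM with TRI-611 (1.12 ± 0.0563 SE, limma adjusted p = 1.16e-05), and CYP1A1 0.135, 0.103 and 0.470 TPM with DMSO and 2.87, 2.77 and 2.33 TPM with TRI-611 (1.58). All DMSO values of CYP1A1 lay under 1 TPM, so it passed the filter through the TRI-611 libraries alone, where it had to be higher. It was not tested when a TRI-611 library was left out. With a filter of TPM above 0 its limma adjusted p was 0.001. AHR (0.47) and ARNT (0.33) rose, TIPARP, its feedback repressor, fell from 156 to 101 TPM (-0.62), and the target NQO1 lay at 0.09. Of 9 genes 4 rose and 1 fell.

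The cereblon ligase and the genes of proteins that known glue degraders remove were listed as well; the labels do not name the ligase that TRI-611 uses. CRBN, the substrate receptor, went from 4.83 to 6.51 TPM (0.36) and its scaffold gene CUL4B from 34.8 to 41.8 TPM (0.26), and DDB1 lay at 0.07. IKZF3, a lymphoid zinc finger factor, fell from 4.16 to 1.17 TPM (-1.25), its relative IKZF2 rose from 7.16 to 11.8 TPM (0.65), and the termination factor GSPT1 fell from 142 to 115 TPM (-0.31). CSNK1A1 (-0.02) was not called. Over 19 tested genes 3 rose and 5 fell. These are RNA levels, and protein was not measured.

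Genes with few exons held more of the large falls. Among 12361 tested protein-coding genes with a model in GENCODE release 29, the share lower by at least 2-fold was 7.56% of 238 genes with 1 exon, 6.62% of 393 with 2, 3.13% of 1407 with 3 to 4, 1.06% of 3485 with 5 to 8, 0.746% of 4156 with 9 to 16, 0.492% of 2235 with 17 to 32, and 0 of 447 with 33 or more, counted in the transcript with most exons. Over all of them the share was 1.35%. Rises of at least 2-fold went from 1.68% and 2.29% in the first 2 classes to 0.313% with 17 to 32 exons. Any call of a lower level fell from 32.8% to 7.38% between the first and the last class, against 22.0% over all, while calls of a higher level ran only between 9.84% and 13.7%. THBD, RRS1, CEBPD and IER5 have 1 exon, and PHLDA1, PHLDA2, SPRY2 and SOCS3 have 2, so the classes and the gene lists share members. Expression level differed between the classes, with medians of 14.9 to 24.9 TPM with DMSO. Genes were also split into 5 equal bins of DMSO level. In the middle bin 5.75% of 348 genes with 1 to 4 exons and 0.477% of 629 with over 16 exons were lower by at least 2-fold. In the lowest bin the shares were 1.53% of 523 and 0 of 505. For any call of a lower level they were 37.4% and 17.8% in the middle bin and 9.18% and 2.77% in the lowest. In the highest bin they were close, at 32.7% of 425 and 29.2% of 400. These shares are descriptions over genes, which are not replicates.

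**Figure D4:**
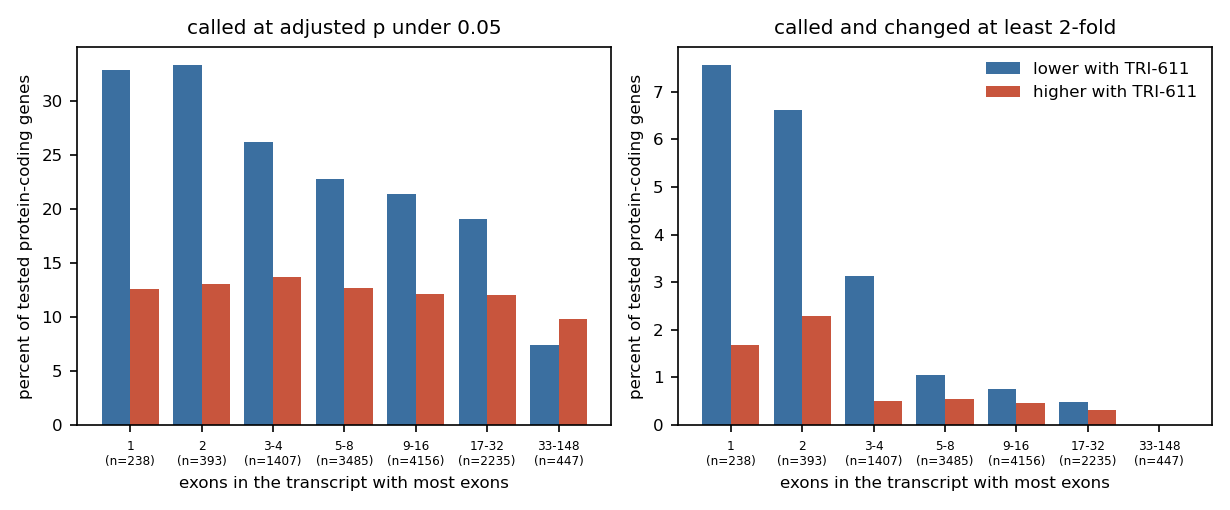
Percent of tested protein-coding genes in SNU2535 that were called lower (blue) or higher (red), by the number of exons in the transcript with most exons. The left panel holds all calls and the right panel those of at least 2-fold, where lower genes go from 7.56% with 1 exon to 0 of 447 with 33 or more.

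The response of SNU2535 was set against those of NCI-H3122 and NCI-H2228 as an interaction on the 12 libraries of each pair of lines. Limma called a different response in 2769 of 13788 genes against NCI-H3122 (20.1%), 512 more positive (3.71%) and 2257 more negative (16.4%) in SNU2535, and in 1547 of 14640 against NCI-H2228 (10.6%), 401 more positive (2.74%) and 1146 more negative (7.83%). These splits depend on the scaling. The median difference over all genes was -0.09 against NCI-H3122 and 0.03 under median-ratio scaling, where the split was 1578 to 1242, and under quantile normalization it was 965 to 1412. Against NCI-H2228 the split was 700 to 873 under median-ratio scaling and 574 to 880 under quantile normalization, and the more positive calls numbered 250 without NCI-H2228 DMSO replicate 1 and 264 without NCI-H2228 TRI-611 replicate 2. Both comparisons use the same 6 SNU2535 libraries. Of 13186 genes tested in all lines, 698 were called in both differences in the same direction. Of these, 608 were also called in SNU2535 itself with a mean TPM of 5 or more in a group. The genes named are the largest of the 608 in each direction, by the smaller of the 2 differences.

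RASSF10, a RAS-association domain gene, measured 63.9, 66.6 and 66.7 TPM with DMSO and 22.7, 18.0 and 17.9 TPM with TRI-611 in SNU2535, a log2 difference of -1.71, against 0.38 in NCI-H3122 and 0.32 in NCI-H2228. The response differences were -2.09 ± 0.155 SE (limma adjusted p = 3.38e-06) and -2.02 ± 0.161 SE (limma adjusted p = 8.74e-06). The level of RASSF10 in the other lines was low, at 3.15 and 6.41 TPM with DMSO. FOXQ1 stood at -2.31 in SNU2535, -0.25 in NCI-H3122 and -0.73 in NCI-H2228, HES1 at -1.95, -0.53 and -0.27, and THBD at -2.93, -0.95 and -1.39. For HES1 the differences were -1.42 ± 0.116 SE and -1.68 ± 0.113 SE (limma adjusted p = 7e-06 and 1.57e-06). PHLDA1, SPRED2, the inflammatory factor CEBPD (-1.55 in SNU2535, -0.40 and -0.21 in the others) and the synaptic adhesion gene LRRC4 also responded more negatively in SNU2535. So did the antisense-type gene EMSLR (-2.14 against -0.79 and -0.68), whose reads cannot be told from those of an overlapping gene without a stated strand setting.

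RASD1, a RAS-like GTPase that glucocorticoids induce, measured 41.2, 47.5 and 47.2 TPM with DMSO and 83.4, 85.8 and 82.3 TPM with TRI-611 in SNU2535 (0.88), and the groups did not overlap. The same gene stood at -2.47 in NCI-H3122 and -0.25 in NCI-H2228, with response differences of 3.35 ± 0.136 SE and 1.13 ± 0.0842 SE (limma adjusted p = 6.03e-08 and 3.62e-06). CITED4, a CBP-binding coactivator, stood at 0.43, -1.93 and -0.49. BTG1 stood at 1.54 in SNU2535 against 0.07 and 0.50, PER1 at 1.43 against 0.58 and 0.58, the zinc finger gene ZNF703 at 1.32 against 0.24 and 0.19, and MMP13 at 1.68 against 0.35 and 0.69. TNS4, a focal adhesion tensin, fell in SNU2535 by less (-0.38 against -1.32 and -1.43), with response differences of 0.94 ± 0.0640 SE and 1.05 ± 0.0646 SE.

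**Figure D5:**
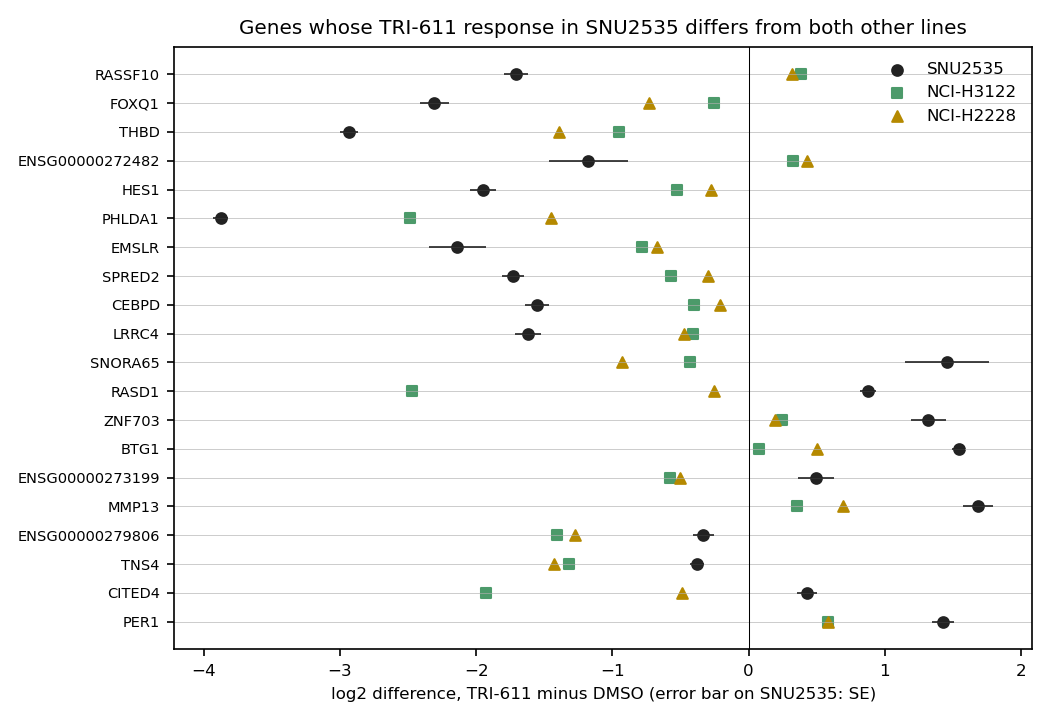
Log2 difference of TRI-611 minus DMSO in SNU2535 (circles, with SE bars), NCI-H3122 (squares) and NCI-H2228 (triangles) for the 20 genes with the largest differences in response between SNU2535 and both other lines, 10 in each direction. RASSF10, at -1.71 in SNU2535, lies above 0 in both other lines, and RASD1, at 0.88, lies below 0 in both.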

How the data were processed

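The authors deposited 1 table of TPM values, used as deposited. The tools in the submitters' processing notes are featureCounts, DESeq2, Subread 1.5.2, fastp 0.23.1 and STAR 2.5.2b, with the genome GRCh38. How TPM was derived, and with which annotation, strand setting and use of molecular identifiers, is not given in those notes or the labels.

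Values were transformed to log2(TPM + 1) and fitted in R 4.3.3 by limma 3.58.1 (robust empirical Bayes with trend, two-sided, Benjamini-Hochberg over all genes tested). Differences between lines were interaction contrasts. Of 1109 genes in 56 lists, 1021 were tested. Members and lists were chosen with earlier results of these data known. Genes named are ALK, EML4, the 15 largest changes per direction (protein-coding, called, groups apart, TPM of 5 or more in the higher group), up to 4 called members per direction and list, genes whose promoter windows are shown, and 10 line differences per direction. Some genes that this rule names are not reported here. Other genes appear as values, or, in a count of 5 or fewer, were named after their values were seen.

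The labels' batch equals the replicate number and was taken as pairing the libraries. Deviations from group means correlated across genes at -0.0228, 0.0437 and 0.00966 within batches 1, 2 and 3. For DMSO and TRI-611 libraries of different batches they correlated at -0.0567 to 0.0517. With 1 library of each group in a batch, none could be tested alone. Replicates correlated at 0.988 to 0.989. On simulated data with 16257 genes, 80.0% of 2-fold and 82.0% of 4-fold changes in SNU2535 were recovered, and 5.81% of calls were false. That single draw changed 100 genes per fold, evenly up and down, with independent normal noise and no rescaling to a fixed sum. In the real data 28.7% of genes were called, more of them lower, so these rates need not hold there. Alternatives were pseudocounts 0.1 and 5, other filters, the replicate block, median-ratio scaling, quantile normalization, plain empirical Bayes, gene subsets, a fit of all 18 libraries, and leaving out each library.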

Additional observations from a re-analysis of the deposited data

Results flagged for a closer look

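In 698 of 13186 genes limma's interaction test called the response in SNU2535 different from both other lines, in the same direction. Of these, 608 were also called in SNU2535 itself with a mean TPM of 5 or more in a group. Among the 608, 74 were more positive and 534 more negative in SNU2535, a split that was not counted under the other scalings. The 20 genes listed here are the 10 largest in each direction. The values are the smaller of the 2 differences on the log2 scale, and both rest on the same 6 SNU2535 libraries.

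More negative in SNU2535 were RASSF10 (-2.02), FOXQ1 (-1.58), THBD (-1.54), HES1 (-1.42), PHLDA1 (-1.39), the antisense-type gene EMSLR (-1.35), SPRED2 (-1.16), CEBPD (-1.16) and LRRC4 (-1.15). The lincRNA gene ENSG00000272482 stood at -1.51, with adjusted p = 0.0132 against NCI-H3122 and 0.0275 against NCI-H2228 in limma. Its call against NCI-H3122 was lost with the replicate block (0.0546), and that against NCI-H2228 without SNU2535 DMSO replicate 1 (0.0584) or 2 (0.0637), SNU2535 TRI-611 replicate 2 (0.0519), NCI-H2228 DMSO replicate 2 (0.0635) or 3 (0.0503), or NCI-H2228 TRI-611 replicate 1 (0.0583).

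More positive in SNU2535 were RASD1 (1.13), ZNF703 (1.08), BTG1 (1.04), the antisense-type gene ENSG00000273199 (1.00), MMP13 (0.99), TNS4 (0.94), the unclassified gene ENSG00000279806 (0.94), CITED4 (0.92) and PER1 (0.85). For TNS4 and ENSG00000279806 this is a smaller fall in SNU2535 than in the other lines. The small nucleolar RNA gene SNORA65 stood at 1.89, with adjusted p = 0.0166 against NCI-H3122 and 0.0271 against NCI-H2228 in limma. Its call against NCI-H2228 was lost without SNU2535 DMSO replicate 1 (0.0645) or 2 (0.0654), SNU2535 TRI-611 replicate 1 (0.0674) or 3 (0.0551), NCI-H2228 DMSO replicate 1 (0.0694) or 2 (0.0536), or NCI-H2228 TRI-611 replicate 2 (0.0593) or 3 (0.0645). Poly-A libraries are not made to capture such short RNAs, and its mean level in SNU2535 was 1.54 TPM in the DMSO group and 6.31 TPM after TRI-611.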

How the results depend on the processing

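The counts of genes higher and lower in SNU2535, and the total counts of different responses between lines, stayed within 1.5 times their main values under every alternative run. The directions of the responses between lines did not: median-ratio scaling moved 512 more positive and 2257 more negative to 1578 and 1242 against NCI-H3122 and 401 more positive to 700 against NCI-H2228, quantile normalization gave 965 and 1412 against NCI-H3122, and 250 or 264 were more positive without NCI-H2228 DMSO replicate 1 or TRI-611 replicate 2. Within SNU2535 the excess of lower calls also depended on the scaling. The main split of 1731 higher and 2941 lower became 2500 and 2415 under quantile normalization and 2061 and 2709 under median-ratio scaling. Leaving out 1 library gave 1209 to 1479 genes higher and 2295 to 2628 lower in SNU2535. It gave 2100 to 2853 different responses against NCI-H3122, and 1084 to 1887 against NCI-H2228. With the replicate block the counts were 1409 higher, 2648 lower, 2100 and 1473, and among the named genes the block ended the calls of EML4 and of NAPSA (adjusted p = 0.0784) and that of ENSG00000272482 against NCI-H3122. It ended no other call that the text states. Of 4983 values of named genes under the alternatives none reversed a call, 32 lost a call and 40 gained one. For the 20 named differences between lines, 15 of 865 values lost a call. Of 839 list medians 117 moved by more than the SD of the 3 batch-wise medians, at most by 0.28 on the log2 scale, and none of the 13 lists with a median beyond 0.2 in size changed sign. TPM gives no read totals, so counting error is unknown, and differences of genes near 1 TPM are the least certain.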
